A study of Mus musculus with 32 samples.

Results

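Hedgehog signaling in the testis was followed through 7 genes: the ligand Dhh, its receptor Ptch1, the signal transducer Smo, the transcription factors Gli1, Gli2 and Gli3, and the ligand-binding inhibitor Hhip. A probe set was taken where its only gene symbol, current or synonym, was one of these names. Each gene had 1 such probe set, so the members were 7 of 35556 probe sets and 7 of the 19928 genes with a single symbol. The question was on which side, Sertoli or Leydig, the transcripts of the ligand and of the receptor apparatus were bound to ribosomes, and whether hormones moved them.

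Hedgehog proteins are secreted ligands that bind the membrane protein PTCH1. Unbound PTCH1 holds SMO inactive; ligand binding frees SMO, which then signals through the primary cilium to the GLI factors in the nucleus. Desert hedgehog (DHH) is the family member known from Sertoli cells, and mice without it form few mature Leydig cells and have disordered peritubular myoid cells. Ptch1, Gli1 and Hhip are themselves targets of the pathway in many tissues, so their transcripts are often read as a sign of response.

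The samples were testes of AMH-Cre: RiboTag mice, in which Cre is active in Sertoli cells, and of Cyp17iCre: RiboTag mice, in which it is active in Leydig cells; all were double heterozygotes whose Cre-expressing cells carry an HA-tagged ribosomal protein. The study's text calls the animals adult; their exact age and strain are not given in the sources used here. Input was RNA of the whole homogenate, and the anti-HA immunoprecipitate (IP) held RNA bound to tagged ribosomes. From saline-treated mice there were 5 inputs and 5 IPs of the AMH-Cre line (Sertoli line) and 3 inputs and 3 IPs of the Cyp17iCre line (Leydig line). Sertoli IPs were also taken, 2 each, after the GnRH antagonist acyline, after acyline followed by FSH for 1 h or 4 h, after the GnRH antagonist cetrorelix, and after cetrorelix followed by testosterone for 4 h. Per the study's text, either antagonist was given for 3 days in the Sertoli line. Leydig IPs were taken, 2 each, after 4 days of acyline and after acyline followed by LH for 1 h or 4 h. As a limit of the model, the study describes HA staining in scattered tubule cells of the Cyp17iCre line besides the interstitium. Because Sertoli transcripts were not depleted in the IPs of that line, the study identifies these as Sertoli cells. Leydig IPs can therefore hold Sertoli RNA, and its part in the values of the members was not tested.

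Each of the 32 samples was read on 1 Affymetrix Mouse Gene 1.0 ST array, and values are log2 RMA signals as the authors deposited them. Array medians lay between 6.363 and 6.499 on the log2 scale. Of 11 Sertoli markers, 11 were enriched in Sertoli IPs and 1, Trf, in Leydig IPs; of 8 Leydig markers, 6 were depleted and 1, Cyb5a, was enriched in Sertoli IPs, and 8 were enriched in Leydig IPs. The summed linear signal of the Sertoli list was 7977 to 9457 in Sertoli inputs and 30717 to 33191 in saline Sertoli IPs, and it was also higher in saline Leydig IPs (14891 to 16111) than in Leydig inputs (8580 to 9215). The p-values below cover only the variation among these arrays, which may be partly technical, and groups of 2 arrays leave every hormone value imprecise.

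The stretches of 250 bases before the RefSeq transcription start of Dhh, Ptch1 and Smo (build GRCm38.p6) are shown because these 3 members differed between fractions or lines. Capitals mark GC boxes, GGGCGG or its reverse complement CCGCCC, a motif of many promoters. The Dhh stretch is chr15:98898541-98898790, minus strand, the Ptch1 stretch chr13:63565736-63565985, minus strand, and the Smo stretch chr6:29735247-29735496, plus strand. The Ptch1 stretch lies inside the gene, which spans 63508328 to 63573460, and other starts of Ptch1 were not searched.
Dhh: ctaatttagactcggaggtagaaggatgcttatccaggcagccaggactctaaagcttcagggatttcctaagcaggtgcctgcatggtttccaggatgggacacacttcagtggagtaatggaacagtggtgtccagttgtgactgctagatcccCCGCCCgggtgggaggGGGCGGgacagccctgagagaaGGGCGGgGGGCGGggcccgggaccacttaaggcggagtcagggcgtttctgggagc
Ptch1: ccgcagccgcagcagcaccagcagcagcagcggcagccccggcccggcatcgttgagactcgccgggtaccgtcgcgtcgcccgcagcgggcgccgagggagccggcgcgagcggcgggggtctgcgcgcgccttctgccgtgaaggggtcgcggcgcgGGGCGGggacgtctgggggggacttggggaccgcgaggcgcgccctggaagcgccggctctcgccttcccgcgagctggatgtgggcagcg
Smo: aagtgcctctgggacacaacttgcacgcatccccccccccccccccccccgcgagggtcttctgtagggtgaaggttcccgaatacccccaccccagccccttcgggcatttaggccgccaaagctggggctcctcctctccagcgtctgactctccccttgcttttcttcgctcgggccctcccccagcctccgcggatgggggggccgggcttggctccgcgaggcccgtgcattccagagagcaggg

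The Dhh stretch held 4 GC boxes, starting at -94, -78, -56 and -49 from the start site, the Ptch1 stretch held 1 and the Smo stretch held 0. A GC box was found in 32.7% of the 32851 stretches of this length in the RefSeq table. The GLI consensus GACCACCCA (in 0.23% of all stretches), its core CCACCCA (8.11%) and the NR5A1 element CAAGGTCA (1.33%), searched on both strands, were not among the letters of the stretches of these 3 genes or of Gli2, Gli3 and Hhip. The core lies within the consensus, so these searches overlap. For Gli1 no stretch was used here.

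Dhh, the ligand, was 5.02-fold higher in Sertoli IPs than in their inputs, and its level in Leydig IPs was close to that of Leydig inputs. In the 5 saline Sertoli IPs it read 10.07, 9.91, 10.04, 9.84 and 9.78 on the log2 scale, against 7.79, 7.49, 7.53, 7.73 and 7.45 in the 5 inputs. All 5 IPs were high, all 5 inputs low, and the groups did not overlap. The log2 difference was 2.33 (SE 0.086, limma adjusted p = 4.18e-10, 5 IPs and 5 inputs), at rank 328 of 24797 probe sets tested. In the Leydig line the IPs read 7.32, 7.27 and 7.63 and the inputs 7.54, 7.51 and 7.46. These groups overlapped, with a log2 difference of -0.10 (95% interval -0.34 to 0.15, limma adjusted p = 0.466). Arrays received equal RNA from both fractions, and a ratio is therefore one of shares rather than of copies per cell. In these bulk samples fewer cells of a type and less RNA per cell cannot be told apart.

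For a call, both an adjusted p below 0.05 and a minimum fold were required: 2 for IP against input and between lines, 1.5 among IPs of a line. Tests were limited to probe sets with a linear signal above 50 (log2 5.64) on at least 1 array of the fit, and 6 of the 7 members passed in both enrichment comparisons. In the Sertoli line 2 of these 6 were called higher, Dhh and Ptch1, and 0 lower; over all probe sets 12.4% were called higher and 11.7% lower. In the Leydig line 2 of 6 were called higher, Ptch1 and Smo, and 0 lower, where 11.0% of all probe sets were higher and 10.7% lower. By unadjusted limma p under 0.05, in either direction, 4 of 6 members differed in the Sertoli line, beside 71.3% of all probe sets, and 3 of 6 in the Leydig line, beside 65.4%. The 6 include Gli3, which passed the filter only through its inputs.

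**Figure D1:**
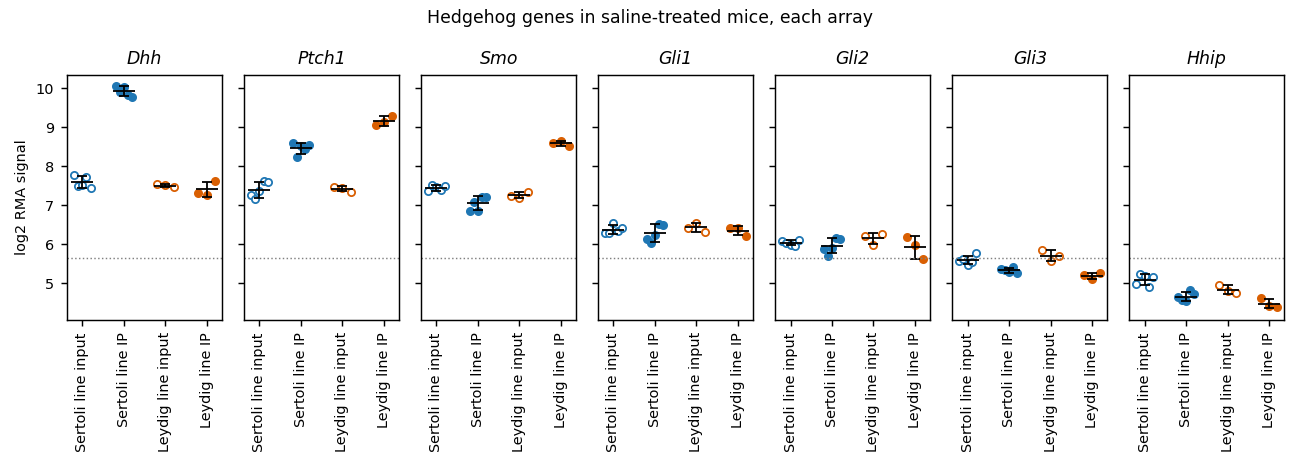
Log2 RMA signal of the 7 hedgehog genes on every array from saline-treated mice, with open points for inputs, filled points for IPs and bars for mean ± SD (n = 5 and 5 for the Sertoli line, 3 and 3 for the Leydig line). Dhh stands out only in the Sertoli IPs (9.78 to 10.07), Smo only in the Leydig IPs (8.52 to 8.64) and Ptch1 in both, while Hhip lies below the dotted line at a linear signal of 50 in every array.

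Ptch1, the receptor, was enriched in the IPs of both lines. In saline Sertoli IPs it read 8.61, 8.23, 8.51, 8.45 and 8.53, against 7.27, 7.17, 7.36, 7.62 and 7.61 in the inputs. The lowest IP was above the highest input, and the fold was 2.09 (log2 1.06, SE 0.10, 95% interval 0.84 to 1.29, limma adjusted p = 1.53e-06). This value lies at the threshold of 2-fold: after quantile normalization of the deposited values it was 0.99 on the log2 scale and no longer called. In saline Leydig IPs Ptch1 read 9.07, 9.12 and 9.29 against 7.47, 7.46 and 7.35 in the inputs. The Leydig fold was 3.34 (log2 1.74, SE 0.086, limma adjusted p = 1.3e-06, 3 IPs and 3 inputs), and the Leydig IPs lay above every saline Sertoli IP. Ptch1 was the one member called enriched in both lines. Peritubular myoid cells also respond to DHH. Of their 9 markers, 2 were called higher (Myh11 and Myl9) and 2 lower in Sertoli IPs, and 1 higher (Myh11) and 2 lower in Leydig IPs. The summed linear signal of that list was 4282 to 4807 in saline Sertoli IPs against 4220 to 4640 in inputs, and 2415 to 2787 in saline Leydig IPs against 4076 to 4324 in inputs. Its part in the Ptch1 values was not tested.

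Smo, the transducer that PTCH1 restrains, was 2.51-fold higher in Leydig IPs than in their inputs and lower in Sertoli IPs than in theirs. The Leydig IPs read 8.60, 8.64 and 8.52 and the inputs 7.24, 7.20 and 7.34. The log2 difference was 1.33 (SE 0.075, 95% interval 1.16 to 1.51, limma adjusted p = 2.48e-06), without overlap. In the Sertoli line the IPs read 6.86, 7.09, 6.86, 7.22 and 7.22, each below the lowest of the 5 inputs, which ranged from 7.36 to 7.53. That ratio of 0.756 (log2 -0.40, SE 0.085, limma adjusted p = 0.00108) passed the p threshold and not the fold of 2. Replicates 4 and 5 of the Sertoli saline IPs were the 2 highest for Smo, Gli1 and Gli2.

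The GLI factors carry the signal into the nucleus: GLI1 acts as an activator, GLI2 mainly as an activator and GLI3 mainly as a repressor when no ligand is bound. Gli1 lay between 6.03 and 6.56 on all 32 arrays. Its IPs and inputs overlapped in both lines, with log2 differences of -0.09 (95% interval -0.32 to 0.14) in the Sertoli and -0.08 (95% interval -0.30 to 0.14) in the Leydig line. A 2-fold difference of the array signal lay outside both intervals. These Gli1 values lay around the array medians of 6.363 to 6.499. Whether a signal at this level follows the transcript was not tested, so a 2-fold difference of the transcript is not excluded. Gli2 lay between 5.61 and 6.26, with differences of -0.08 (95% interval -0.27 to 0.11) and -0.23 (95% interval -0.58 to 0.12). The saline Sertoli IPs of Gli1 fell into 6.14, 6.03 and 6.23 for replicates 1 to 3 and 6.53 and 6.503 for replicates 4 and 5. Neither gene was called in any comparison made here.

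Gli3 was low throughout, from 4.99 to 5.86, and passed a linear signal of 50 on 3 of 32 arrays, all of them inputs. It entered the tests through those inputs, where it is highest. Its IPs lay below its inputs in both lines without overlap, with ratios of 0.835 (limma adjusted p = 0.00371) in the Sertoli and 0.698 (limma adjusted p = 0.00171) in the Leydig line, both under 2-fold in size. Hhip, which binds hedgehog ligands at the cell surface and keeps them from PTCH1, lay between 4.28 and 5.23 and did not pass 50 on any array. Without the filter its ratios were 0.741 (limma adjusted p = 0.000885) and 0.780 (limma adjusted p = 0.0194). Levels this low were not read further.

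**Figure D2:**
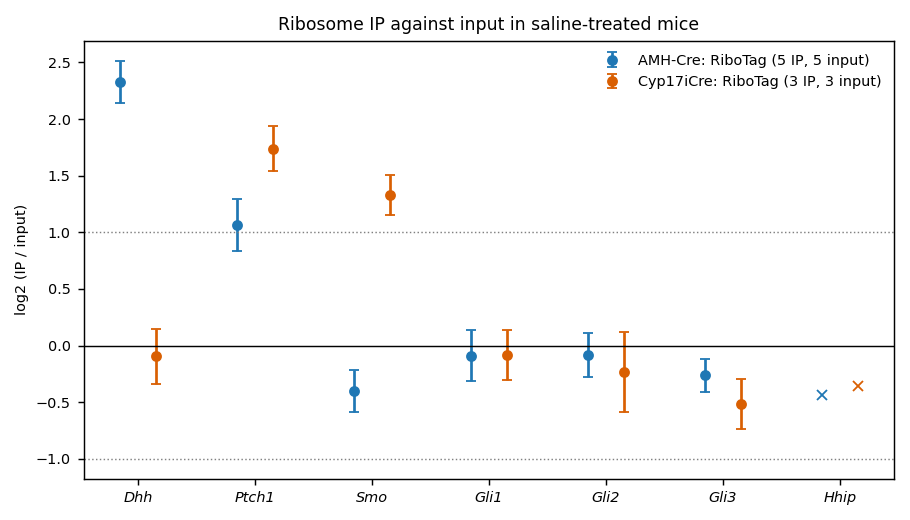
Log2 ratio of IP to input for each hedgehog gene in both lines, with 95% intervals from limma; crosses mark Hhip, which did not pass the filter and has no interval, and dotted lines mark 2-fold. Dhh (2.33 against -0.10) and Smo (-0.40 against 1.33) have opposite patterns, Ptch1 is above 0 in both lines and the GLI genes and Hhip lie at or below 0.

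The ligand and receptor side were then set against each other by testing whether enrichment differed between lines. Over all 25524 probe sets tested, 5.48% were more enriched in the Leydig line and 5.98% less. Of the 6 members tested, 1 was called in each direction. Dhh was less enriched in the Leydig line by a log2 difference of -2.42 (SE 0.14, limma adjusted p = 1.14e-09), a ratio of ratios of 0.186. Smo was more enriched, by 1.73 (SE 0.12, limma adjusted p = 1.17e-08) or 3.33-fold. Ptch1 was also more enriched in the Leydig line, by 0.68 (SE 0.15, 95% interval 0.35 to 1.00, limma adjusted p = 0.00216), which at 1.60-fold stayed under the threshold of 2. For Gli1 the difference was 0.01 (95% interval -0.33 to 0.34) and for Gli2 -0.15 (95% interval -0.52 to 0.21). Gli3, which again passed the filter only through inputs, had -0.26 (limma adjusted p = 0.0864).

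Direct comparison of the saline IPs, which shares its IPs with the previous contrast and is no separate evidence, gave for Leydig over Sertoli IPs 0.174 for Dhh, 2.91 for Smo and 1.62 for Ptch1. No array of one line overlapped with the other for these 3 genes. Here 6.19% of all probe sets were called higher and 6.52% lower in the Leydig IPs, and 1 of the 6 members tested in each direction, Smo and Dhh. The 6 include Gli3, which passed the filter only through inputs. Between the inputs of the lines 0 of 6 members were called in limma (1 at an unadjusted p under 0.05, Smo, log2 -0.19). Of all probe sets 0.623% were called and 27% had an unadjusted p under 0.05. Line and experiment cannot be told apart in these contrasts. In the contrast of enrichments, interstitial stroma markers moved the same way as Smo: of 7 tested, 4 were more enriched in the Leydig line (median log2 1.51 over the list, -0.03 over all probe sets), among them Pdgfra and Nr2f2. Against their inputs, 2 of the 7 were called higher and 0 lower in Leydig IPs (median log2 0.35). In Sertoli IPs 0 were called higher and 3 lower (median log2 -0.88). The summed linear signal of that list was 3334 to 4091 in saline Leydig IPs and 1000 to 1332 in saline Sertoli IPs. Whether this RNA came from stroma or from the tagged cells was not tested, nor was its part in the Smo and Ptch1 values. Schwann cells are another known source of DHH; the summed signal of the 4 measured of 6 Schwann markers was 223 to 240 in saline Sertoli IPs and 200 to 216 in Sertoli inputs, and of the 2 tested 0 were called in limma.

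The other genes of the pathway were taken by list, and 12 of the 40 tested in both lines were called in at least 1 enrichment, the 3 members above included, where 32% of all probe sets tested in both lines were. Genes with several probe sets were counted by the one with the highest mean. Among 8 ligands and genes of ligand release, 1 was called higher in Sertoli IPs, Dhh itself, and 0 in Leydig IPs. Over all probe sets 12.4% were called higher in the Sertoli and 11.0% in the Leydig line. The related ligands Shh and Ihh had ratios of 1.06 and 1.13 in the Sertoli line and 1.03 and 1.07 in the Leydig line. Disp1, which releases hedgehog ligands from the cell, has 2 probe sets that differed, with log2 ratios of 0.49 and 1.09 in the Sertoli line and 0.34 and 0.75 in the Leydig line. The count rests on the first of each pair, and the second met the call in the Sertoli line (limma adjusted p = 3.8e-08). Dhh was thus the only hedgehog ligand transcript called in either line.

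Of 4 tested receptors and co-receptors, 3 were called higher in Leydig IPs (Ptch1, Smo and Boc) and 1 in Sertoli IPs (Ptch1). Among all probe sets the share called higher was 11.0% in Leydig and 12.4% in Sertoli IPs. BOC is a surface co-receptor that binds hedgehog ligands together with PTCH1. It read 8.31 to 8.55 in saline Leydig IPs and 6.58 to 6.82 in their inputs, a 3.20-fold difference (log2 1.68, SE 0.099, limma adjusted p = 3.19e-06). In Sertoli IPs Boc lay below every input, with a ratio of 0.629 (limma adjusted p = 3.58e-05) that did not reach 2-fold. The difference between lines was 2.35 on the log2 scale (SE 0.15, limma adjusted p = 2.45e-09). Gas1, another co-receptor, had ratios of 1.44 and 1.54 in the Sertoli and Leydig line and was called in neither, and Cdon did not pass the filter. The median log2 ratio of the 4 was 1.503 in the Leydig line and 0.06 in the Sertoli line, beside -0.03 over all probe sets in each.

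Of 17 tested transduction genes, 3 were called lower in each line, beside 11.7% of all probe sets in the Sertoli and 10.7% in the Leydig line. The 3 were the same in both lines: Sufu, which holds GLI proteins in the cytoplasm, Stk36, a kinase related to fly Fused, and Dzip1, a protein of the cilium base. Their ratios were 0.397, 0.375 and 0.376 in the Sertoli line and 0.427, 0.323 and 0.413 in the Leydig line. Of 12 germ cell markers, 10 were depleted in Sertoli IPs and 12 in Leydig IPs, and their part in these 3 values was not tested. Tulp3, which carries receptors into the cilium, was 2.62-fold higher in Sertoli IPs (limma adjusted p = 4.06e-08) and 1.45-fold in Leydig IPs, where it was not called. Arrb1, a beta-arrestin that binds SMO, was 2.38-fold higher in Leydig IPs (limma adjusted p = 4.62e-06) and 1.88-fold in Sertoli IPs, under the threshold. Spop, an adaptor that marks GLI proteins for degradation, was called in neither line but differed between them by 2.10-fold (log2 1.07, limma adjusted p = 9.18e-08).

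Genes known as hedgehog targets in other tissues did not move as 1 group. Of 10 tested, 2 were called higher in Sertoli IPs, Ptch1 and Mycn, and 3 in Leydig IPs, Ptch1, the cyclin Ccnd2 and the small GTPase Rab34. Of all probe sets 12.4% were called higher in Sertoli and 11.0% in Leydig IPs, and Ptch1 is also counted among the receptors. The medians over the list were -0.09 and -0.08 on the log2 scale. Mycn, a transcription factor of growth, was 2.71-fold higher in Sertoli IPs and had a ratio of 0.897 in Leydig IPs, a log2 difference between lines of -1.59 (limma adjusted p = 6.07e-06). Ccnd2 had the opposite pattern, 2.60-fold in Leydig IPs and 0.725 in Sertoli IPs, with a difference of 1.84 (limma adjusted p = 1.76e-09). Rab34 was 3.39-fold higher in Leydig IPs and 1.85-fold in Sertoli IPs. Grk2 and Prkaca, which are also on these lists, are not analysed here.

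**Figure D3:**
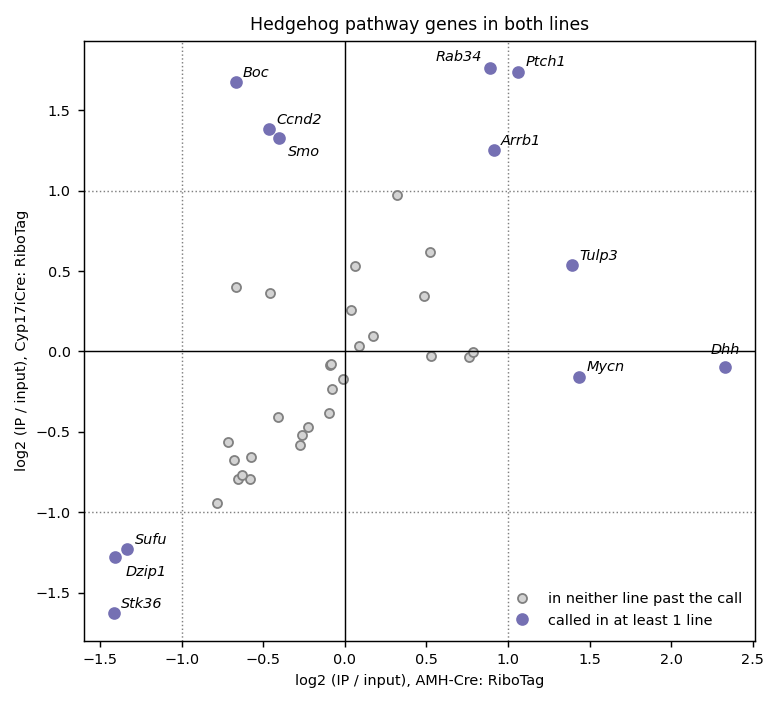
Log2 ratio of IP to input in the Sertoli line (x axis) and the Leydig line (y axis) for 40 genes of the hedgehog pathway lists, purple where called in at least 1 line; dotted lines mark 2-fold. Dhh (2.33) and Mycn lie to the right near 0 on the y axis, Smo, Boc and Ccnd2 lie above 1 on the y axis and below 0 on the x axis, and Ptch1 is the gene more than 2-fold higher in both, while Sufu, Stk36 and Dzip1 lie at the lower left.

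Hormones were examined within the IPs of each line, where 5 members passed the filter and Gli3 and Hhip did not. Dhh stayed between 9.62 and 10.07 in all 15 Sertoli IPs and between 7.01 and 7.63 in all 9 Leydig IPs, treated or not. In order of group means the acyline group was highest in the Sertoli IPs (9.96) and the FSH 1 h group lowest (9.71), and the ranges of neighboring groups in that order overlapped. After FSH for 1 h Dhh read 9.62 and 9.79, against 9.95 and 9.97 after acyline alone (log2 -0.25, 95% interval -0.51 to 0.01, limma adjusted p = 0.542). After 4 h of FSH it read 9.94 and 9.96.

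In limma 0 of 5 members were called after acyline, cetrorelix, testosterone or FSH in the Sertoli IPs, and 1, Ptch1 at FSH 1 h, had an unadjusted p under 0.05 in any of these, where 9.43% of all probe sets had one at FSH 1 h. Few probe sets were called there at all: 0.00406% after acyline, 0.0122% after cetrorelix, 0.00406% after testosterone, 0% after FSH for 1 h and 0.0203% after FSH for 4 h. Ptch1 read 8.26 and 8.30 after FSH for 1 h, below both acyline IPs at 8.69 and 8.70 (log2 -0.41, SE 0.14, limma adjusted p = 0.363). At 4 h it was 8.35 and 8.70 and overlapped with the acyline IPs. Smo varied most between the arrays of a group, with 6.98 and 7.68 after acyline. A difference of the acyline effect between lines was called for 0 of 5 members in limma (0 at an unadjusted p under 0.05). Of all probe sets 0.0669% were called and 8.66% had an unadjusted p under 0.05. Acyline was given for a different number of days in each line, per the methods.

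In the Leydig IPs no receptor or co-receptor was called after acyline alone. Boc read 8.98 and 9.08 after acyline, above all 3 saline IPs, at a ratio of 1.56 past the fold of 1.5 but not the p threshold (log2 0.64, SE 0.13, limma adjusted p = 0.121). Ptch1 read 9.15 and 9.25 after acyline and Smo 8.70 and 8.83, with log2 differences from saline of 0.04 (95% interval -0.23 to 0.30) and 0.18 (95% interval -0.07 to 0.42). In limma 0 of 5 members were called after acyline, where 0.143% of all probe sets were, and 0 of 5 after LH for 1 h, where 0.00818% were. An unadjusted limma p under 0.05 was found for 0 of 5 members in each. Of all probe sets 13.7% had one after acyline and 6.06% after LH for 1 h. After LH for 1 h Ptch1 read 9.01 and 8.92, below both acyline IPs (log2 -0.24, 95% interval -0.53 to 0.06).

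After LH for 4 h Ptch1 read 8.69 and 8.40, below each of the other 7 Leydig IPs, which ranged from 8.92 to 9.29. Against acyline the ratio was 0.636 (log2 -0.65, SE 0.13, limma adjusted p = 0.0612), past the fold of 1.5 but not the p threshold. In limma 0 of 5 members were called in this contrast (2 at an unadjusted p under 0.05, Ptch1 and Smo). Of all probe sets 0.613% were called and 18.3% had an unadjusted p under 0.05. Smo read 8.42 and 8.39, also below all other Leydig IPs, with a ratio of 0.780 (limma adjusted p = 0.168). Boc had a ratio of 0.567 (limma adjusted p = 0.0528). The median over the 4 tested receptors and co-receptors was -0.53 on the log2 scale, against 0.00 over all probe sets.

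Against saline, a comparison added after the data had been seen, LH at 4 h gave 1 of 5 members called, Ptch1 at a ratio of 0.653 (log2 -0.62, SE 0.12, limma adjusted p = 0.0251), where 3.32% of all probe sets were called. The call was lost without LH 4 h replicate 2 (log2 -0.47) and without saline replicate 1 (-0.66), 2 (-0.64) or 3 (-0.55). Tulp3 was called higher in the same contrast, at 1.57-fold (limma adjusted p = 0.0171), while Smo (0.880) and Boc (0.881) were not called. The LH 4 h arrays had the lowest medians of the Leydig IPs (6.397 and 6.408, others 6.466 to 6.499), and with each array centered on its median the Ptch1 differences were -0.58 against acyline and -0.53 against saline, the latter no longer called. Of the stroma list 2 of 7, Pdgfra (0.451) and Nr2f2 (0.544), were called lower against acyline. Both were also more enriched in the Leydig than in the Sertoli line. Whether their RNA came from stroma or from the tagged cells was not tested. The summed signal of the list was 2400 in both LH 4 h IPs and 3334 to 4091 in the other Leydig IPs. The part of these differences in the Ptch1 values was not tested.

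**Figure D4:**
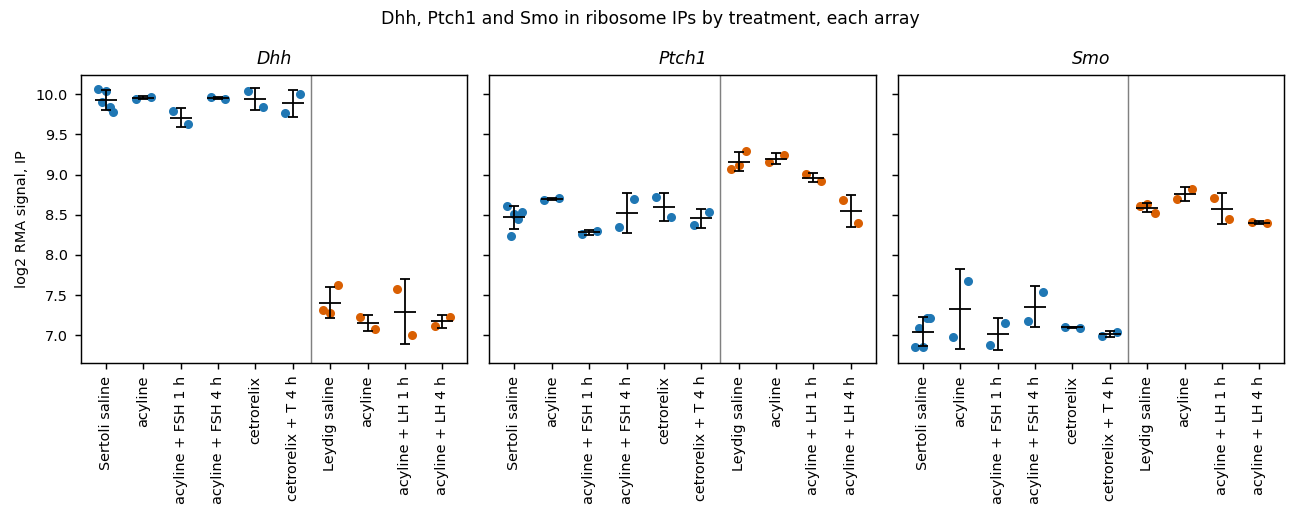
Log2 RMA signal of Dhh, Ptch1 and Smo in every IP by treatment, with bars for mean ± SD (n = 2 per group, 5 and 3 for saline; T, testosterone). Dhh forms separate bands for Sertoli (9.62 to 10.07) and Leydig (7.01 to 7.63) IPs, and the LH 4 h arrays are the lowest Leydig values for Ptch1 (8.69 and 8.40) and Smo (8.42 and 8.39).

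In order of group means Ptch1 was highest in the Leydig IPs after acyline (9.20), saline (9.16) and LH for 1 h (8.96), and the LH 4 h group (8.55) fell among the Sertoli IPs, whose means ran from 8.28 to 8.69. Acyline and saline overlapped, as did the LH 4 h group with its Sertoli neighbors, and both groups of inputs were lowest at 7.42 and 7.40. Smo had its 4 Leydig IP groups on top, from 8.76 to 8.40, then a step of 0.95 down to the Sertoli inputs at 7.45. For Gli1 and Gli2 every group overlapped with the next in order.

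The genes whose pattern over the 32 arrays was most like each member were named by Pearson correlation among 17624 probe sets; arrays of one line and fraction share their source, so these values describe the arrays only. Nearest to Dhh were Reep1 (r = 0.998), Btnl10 (0.997) and Erbb4 (0.996), with Sertoli enrichments of 4.82-, 6.53- and 5.73-fold. Nearest to Ptch1 were Stxbp3 (0.976), Aff1 (0.971) and Abhd3 (0.970), and nearest to Smo were Rcan2 (0.968), the estrogen receptor Esr1 (0.966) and Kif1c (0.965). For the low members the likeness was weaker, at most 0.687 for Gli1 (Serpina10), 0.685 for Gli2 (Gm15348), 0.894 for Gli3 (4933401B06Rik) and 0.857 for Hhip (1110065P20Rik). Among the members themselves Dhh and Smo ran opposite (r = -0.73), Ptch1 followed Smo loosely (0.52) and Dhh hardly (0.14), all over 32 arrays.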

How the data were processed

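RNA of testis homogenates (input) and of anti-HA immunoprecipitates was amplified by the authors from about 100 ng, hybridized to Mouse Gene 1.0 ST arrays and normalized with RMA; the deposited values are log2 signals per probe set, with no version of RMA given in the sources used here. Samples were grouped by their labels; 4 cetrorelix arrays whose source label reads input were taken as IPs from title and sample type. Of 35556 probe sets, 21797 had 1 gene symbol, 1613 several and 12146 none in the annotation table. Probe sets were filtered at a linear signal above 50 in at least 1 array of the fit and tested with limma 3.58.1 in R 4.3.3 (moderated contrasts, Benjamini-Hochberg adjustment over all probe sets tested). Enrichment was fitted within a line, hormone effects among the IPs of a line, and differences between lines over both. The genes named are the 7 members in every comparison, pathway genes called in at least 1 comparison, and the 3 genes most like each member; a few others were added as ligands, receptors or markers. Members and lists were chosen with earlier results of these data known. The GC box and the comparison of LH 4 h with saline were added after the data had been seen. The fits were tested on simulated data. Promoter stretches were taken from RefSeq. No raw array files were used.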

Additional observations from a re-analysis of the deposited data

Results flagged for a closer look

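By a limma contrast of both enrichments, IP over input differed between the Leydig and the Sertoli line at an adjusted p under 0.05 for 10 of the genes that are members or were called in any comparison. On the log2 scale, Leydig minus Sertoli, the difference was -2.42 for Dhh, 2.35 for Boc, 1.73 for Smo, 1.07 for Spop, 1.84 for Ccnd2 and -1.59 for Mycn, each past 2-fold. It was less than 2-fold for Ptch1 (0.68), Rab34 (0.87), Tulp3 (-0.86) and Arrb1 (0.34). In the 14 sets of 5 arrays examined for the members, 0 arrays stood far from the rest of their group.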

How the results depend on the processing

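Counts of members called were recomputed 298 times over 15 comparisons, and 9 moved. In the Sertoli enrichment, quantile normalization left 1 member called instead of 2, as Ptch1 fell to 0.99 on the log2 scale; leaving out each array in turn gave 2 and 2 at the lowest and highest. For LH 4 h against saline the 1 call, Ptch1, was lost (0 called) with arrays centered on their medians, with an ordinary contrast, with the replicate block, in a fit of only the groups compared, and in leave-one-out fits that ranged from 0 to 1; its adjusted p ran from 0.0193 to 0.096. Ptch1 for LH 4 h against acyline was called under no alternative (adjusted p 0.0535 to 0.338). No other count of members moved. Of 1581 recomputed member values, 93 changed sign while past no threshold under either setting, 27 of them outside the leave-one-out fits. In the main fit all of these had a size of at most 0.31. Over all probe sets, the enrichment and between-line IP counts stayed within 1.5 times of those reported, whereas counts for hormones moved widely: 0 to 246 for Leydig acyline (reported 35), 1 to 482 for LH 4 h against acyline (150), 0 to 1015 for LH 4 h against saline (812), 0 to 14 for LH 1 h (2), 0 to 74 for FSH 1 h (0), 0 to 8 for Sertoli acyline (1), 5 to 45 for the difference of acyline effects (17) and 86 to 192 between inputs (159). The causes were not tested. The study compared IPs with their respective inputs, but the labels do not say that equal replicate numbers mark 1 homogenate. The main fits did not pair them. For equal numbers the correlation of deviations was 0.141, 0.08, 0.075, -0.035 and 0.141 in the Sertoli and 0.149, 0.026 and 0.051 in the Leydig line. For unequal numbers it ran from -0.185 to 0.194 and from -0.108 to 0.052. Whether the samples are paired cannot be settled from these values. With the number as a replicate block, 2 members stayed called in each enrichment, and all calls over probe sets numbered 5973 in the Sertoli line (5973 without). FSH 1 h against acyline could not be fitted without the FSH 1 h arrays, and no other probe set could be tried for any member.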
